A study of Mus musculus with 20 samples.

Results

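Embryonic stomach mesenchyme lacking Eed was compared with control stomach mesenchyme by polyadenylated RNA sequencing at E13.5, in midgestation. These 4 libraries, 2 of each genotype, were chosen by their labels from the 20 samples of the series. Control embryos carried the genotype Bapx1-cre;Rosa26mTmG and Eed KO embryos carried Eedfl/fl;Bapx1-cre;Rosa26mTmG, so the Cre allele and the membrane-switch reporter were shared by both groups. Bapx1-cre is active in the mesenchyme of the early gut, the reporter turns cells green after Cre action, and the libraries were made from green cells sorted out of dissociated stomachs. The strain is given as C57BL/6 in the labels, whereas the study's methods describe mixed backgrounds and a floxed Eed line of mixed 129 and C57BL/6 origin. Strain background and Eed genotype therefore cannot be told apart at loci that differ between strains. How many embryos stand behind a library is not given for these samples, so p-values measure the spread between these libraries. Embryos of both sexes were used: Eed KO replicate 1 had 2 counts of the X-inactivation transcript Xist and 4915 of the Y-linked Ddx3y, Eed KO replicate 2 had 1903 and 2, and the controls held 2607 and 1437 counts of Xist and 1052 and 3148 of Ddx3y.

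EED is a core subunit of Polycomb Repressive Complex 2 (PRC2), which places methyl groups on lysine 27 of histone H3 (H3K27me3). EED binds this mark and stimulates the EZH2 or EZH1 enzyme of the complex, and genes under the mark, many of them developmental transcription factors with CpG-rich promoters, are kept silent outside their own lineage. In the gut, mesenchymal Hox genes and other transcription factors are laid out along the proximal to distal axis, and mesenchymal Wnt, BMP, R-spondin and retinoic acid signals act on the overlying epithelium.

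The libraries held 34115855 and 39606157 gene counts in the controls and 35876989 and 36332139 in the Eed KO, and 3 counts corresponded to 0.0757 to 0.0879 CPM, the gene count scaled to a common library total. Spike-in transcripts, added RNA of known amount, took 0.110% and 0.0909% of counts in the controls and 0.0337% and 0.0134% in the Eed KO. All levels and fold changes below are relative to the total gene count of a library. Scaling by spike-ins in its place moved the median of all genes up by 2.39 on the log2 scale in the Eed KO, with the spike-in share of the 2 Eed KO libraries itself unequal. Under that absolute scaling all 789 genes called higher stayed above 0, but 100 of the 133 genes called lower changed sign.

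The targeted gene was measured first. Eed (chr7:89954656-89980983 on mm10) had 40.04 and 41.5 CPM in the controls and 11.5 and 7.40 CPM in the Eed KO, without overlap of the groups (log2 fold change -2.11, SE 0.21, adjusted p = 0.00151). The remaining counts over the whole gene body were 427 and 270, against 1382 and 1627 in the controls. Relative to spike-ins, the Eed value was 0.14 with an adjusted p of 0.848. Among the 11 PRC2 subunit genes tested, Eed was the one called. Ezh2, the main methyltransferase, had 117 and 125 CPM in the controls and 97.1 and 104 CPM in the Eed KO (adjusted p = 0.121). Suz12, another core subunit, had 112 and 121 CPM against 107 and 104 CPM (adjusted p = 0.365). Bmi1, a subunit of the partner complex PRC1, was raised from 123 and 119.9 CPM to 304 and 252 CPM (log2 fold change 1.195, SE 0.12, adjusted p = 0.00142) and was the single called gene of 24 PRC1 genes.

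More genes were called higher than lower, and the raised genes began from low levels. Of 16218 genes tested, 789 were higher and 133 lower at an adjusted p under 0.05 with a log2 fold change above 1 in size, which is 4.86% and 0.82% of genes tested. The raised genes had a median of 0.766 CPM in the controls and 4.33 CPM in the Eed KO. Of them 424 (53.7%) lay under 1 CPM in the controls, against 17.1% of genes not called, and 62 had no control count at all. The lowered genes instead had a median of 7.12 CPM in the controls and 2.51 CPM in the Eed KO. When the libraries were left out in turn, in the order control replicate 1, control replicate 2, Eed KO replicate 1 and Eed KO replicate 2, the counts were 335, 280, 587 and 323 higher and 69, 62, 76 and 52 lower, and 220 raised and 40 lowered genes were called in all 4 of these fits. With one factor estimated from spike-ins (RUVg in DESeq2), 360 genes were higher and 313 lower, of which 267 and 47 were among the calls above. Counts of gene groups without 1 library are given in that same order below.

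**Figure D1:**
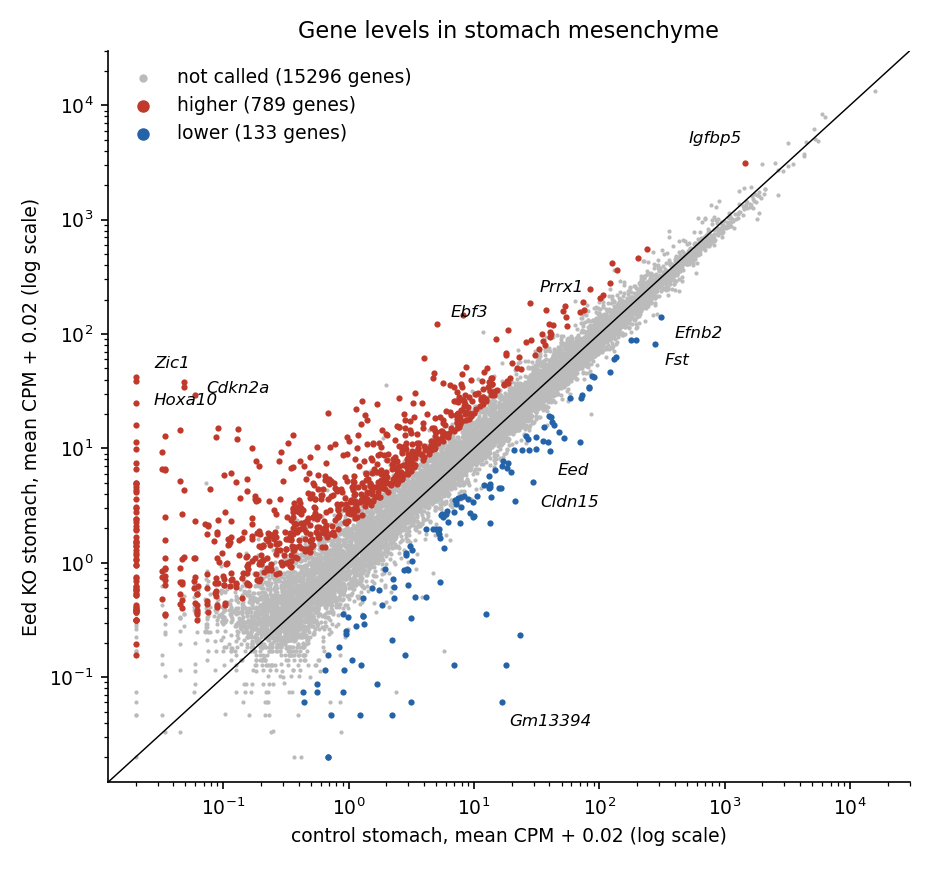
Mean CPM of each of 16218 genes in the control stomach (horizontal) and the Eed KO stomach (vertical), both with 0.02 added and on log scales; the line marks equal levels. The 789 genes called higher are mostly at the low end of the control axis, and 62 of them stand in the column at 0.

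Developmental transcription factors were prominent among the raised genes. Homeobox and other transcription factor lists together held 380 genes, of which 279 were tested and the others had too few counts. Of the tested genes 121 were higher and 7 lower. The median log2 fold change of the tested genes was 1.31, against 0.00084 over all genes tested. These lists held 15.3% of the raised genes, 5.26% of the lowered genes and 1.72% of the genes tested. The raised count without 1 library was 83, 75, 102 and 82. With the spike-in factor, it was 77. A gene almost absent from the controls could reach enough counts for a test by rising, but could hardly be called lower. Shares of tested genes therefore lean towards increases where control levels are low.

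Promoters of raised genes are shown first, because genes of this kind moved together and open chromatin was measured over them. The sequences are the 250 bases before the transcription start in RefSeq (GRCm38.p6), written 5′ to 3′ on the gene's strand, with CpG dinucleotides in capitals. Zic1 (chr9:91365769-91366018, minus strand), Hoxa13 (chr6:52260881-52261130, minus strand) and Cdkn2a (chr4:89294620-89294869, minus strand) went from no count or next to none in the controls to well above 10 CPM, and Fabp7 (chr10:57784673-57784922, plus strand) is a gene called lower, shown for contrast. The Fabp7 call was lost without control replicate 2 or Eed KO replicate 2 (adjusted p up to 0.0832), and its value was 0.26 under absolute spike-in scaling.
Zic1: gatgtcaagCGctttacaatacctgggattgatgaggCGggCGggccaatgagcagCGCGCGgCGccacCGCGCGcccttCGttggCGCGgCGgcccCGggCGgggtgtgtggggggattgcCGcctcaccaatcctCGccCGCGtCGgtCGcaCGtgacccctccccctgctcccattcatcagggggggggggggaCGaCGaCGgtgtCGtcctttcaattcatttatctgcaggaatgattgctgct
Hoxa13: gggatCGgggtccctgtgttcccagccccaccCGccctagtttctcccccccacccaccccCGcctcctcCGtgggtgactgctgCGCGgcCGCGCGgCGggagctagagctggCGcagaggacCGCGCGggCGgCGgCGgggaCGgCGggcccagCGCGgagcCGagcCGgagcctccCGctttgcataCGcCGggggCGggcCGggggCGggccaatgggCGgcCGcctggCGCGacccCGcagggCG
Cdkn2a: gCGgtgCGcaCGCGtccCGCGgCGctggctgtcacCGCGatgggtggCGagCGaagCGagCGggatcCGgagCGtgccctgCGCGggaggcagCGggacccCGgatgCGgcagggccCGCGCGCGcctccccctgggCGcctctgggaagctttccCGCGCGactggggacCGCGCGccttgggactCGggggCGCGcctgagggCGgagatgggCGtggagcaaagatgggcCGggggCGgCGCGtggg
Fabp7: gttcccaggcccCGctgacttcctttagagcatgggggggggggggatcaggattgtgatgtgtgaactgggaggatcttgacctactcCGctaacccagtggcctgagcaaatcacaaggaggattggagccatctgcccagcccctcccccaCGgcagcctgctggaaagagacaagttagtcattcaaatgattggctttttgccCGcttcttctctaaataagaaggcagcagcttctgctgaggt
The letters CG, which read the same on both strands, occurred 27 times before Zic1, 35 times before Hoxa13, 40 times before Cdkn2a and 4 times before Fabp7. Over the 11278 promoters of tested genes that matched by symbol, the median was 16, and 15.6%, 5.35%, 2.51% and 92.0% of them held at least as many as Zic1, Hoxa13, Cdkn2a and Fabp7. The printed promoters do not stand for their groups. Over 300 bases around the gene start, the median count was 15 for raised genes, 9 for lowered genes and 18 for genes not called.

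Hox genes split by their place in the clusters. All 12 tested genes of paralogue groups 10 to 13 were higher, as were 6 of 7 genes of groups 8 and 9, whereas none of 12 genes of groups 1 to 4 was higher and 3 were lower. Mean control levels in groups 10 to 13 were at most 0.040 CPM, so a decrease could hardly have been called there. In the HoxD cluster no tested gene fell, and the lowest log2 fold change was 2.23. Its genes of groups 1 to 4 lay higher in the Eed KO without overlap, but were not called at their low counts. Hoxd1 went from 0 and 0 to 7 and 4 counts, Hoxd3 from 0 and 1 to 8 and 2, and Hoxd4 from 1 and 5 to 15 and 14. Over the 4 clusters, 19 of 39 tested genes were called higher and 6 lower relative to the library total (all 6 turned positive under absolute spike-in scaling). The counts without 1 library were 18, 17, 19 and 17 higher and 5, 4, 6 and 4 lower. Because 14 of the 39 genes had no control count, the median log2 fold change of 2.61 was 2.23 with those genes at their lower bound.

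Hoxa10 was absent from both control libraries (0 and 0 CPM) and reached 40.6 and 36.9 CPM in the Eed KO, at least 953-fold higher against a floor of 3 counts over the group (adjusted p = 0.000279). Hoxa13, a gene of the hindgut and distal limb, went from 0 and 0 CPM to 20.1 and 29.6 CPM, at least 609-fold higher. Hoxa11 went from 0 and 0 CPM to 9.65 and 13.1 CPM, at least 279.6-fold higher, but its antisense neighbour Hoxa11os overlaps it and the strand setting of the counting is not given. In these genes the control libraries held no count, and the 2 Eed KO libraries differed from each other by less than 1.5 times.

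Hoxb13, the last gene of its cluster, rose from 0 and 0 CPM to 14.5 and 17.7 CPM, at least 396-fold. Hoxd13 had 0.0290 and 0.0510 CPM in the controls and 25.8 and 32.5 CPM in the Eed KO, 715-fold higher (95% interval 244 to 3471). Hoxc8 had 0 and 0.0510 CPM against 14.7 and 14.4 CPM, 537-fold higher (95% interval 148 to 4443). Posterior genes that the controls did express rose less: Hoxa9 from 1.07 and 1.249 to 14.4 and 11.8 CPM (log2 fold change 3.49, SE 0.27, adjusted p = 0.000595), Hoxb9 from 4.40 and 3.31 to 22.3 and 27.2 CPM and Hoxd8 from 2.43 and 2.57 to 16.4 and 14.1 CPM. Hoxc6 was the most anterior gene called higher, from 2.55 and 3.13 CPM in the controls to 9.92 and 9.70 CPM (log2 fold change 1.78). The other 9 HoxC and HoxD genes called higher had no control count, and their mean Eed KO levels lay between 1.26 CPM (Hoxd11) and 7.45 CPM (Hoxd9).

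The genes called lower all belonged to paralogue groups 1 to 7. Hoxa5, a gene expressed in stomach mesenchyme, had 79.9 and 66.8 CPM in the controls and 32.7 and 26.2 CPM in the Eed KO (log2 fold change -1.32, SE 0.14, adjusted p = 0.00209). Hoxa4 had 31.0 and 31.8 CPM against 10.3 and 9.57 CPM (log2 fold change -1.66, SE 0.14, adjusted p = 0.000798). Hoxa2 had 19.7 and 17.1 CPM against 7.03 and 6.31 CPM (log2 fold change -1.46, SE 0.14, adjusted p = 0.00136). Hoxc5, Hoxb7 and Hoxb1 were also called lower, with log2 fold changes of -1.32, -1.18 and -2.12, and their groups did not overlap. The Hoxc5 gene model (chr15:102967443-103017429) spans Hoxc9, Hoxc8 and Hoxc6 on the same strand, which were called higher. The assignment of reads among these genes is therefore uncertain. The calls of Hoxc12, Hoxd10, Hoxb1 and Hoxb7 did not hold in all 4 fits with 1 library left out (highest adjusted p among them 0.130). Hoxb8, with 41.3 and 49.4 CPM in the controls and 37.8 and 35.5 CPM in the Eed KO, was not called (adjusted p = 0.193). None of the 11 Meis, Pbx and Tgif genes, which encode cofactors of Hox proteins, was called at the fold threshold, and Meis1 was at 219 and 225 CPM against 177 and 169 CPM.

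**Figure D2:**
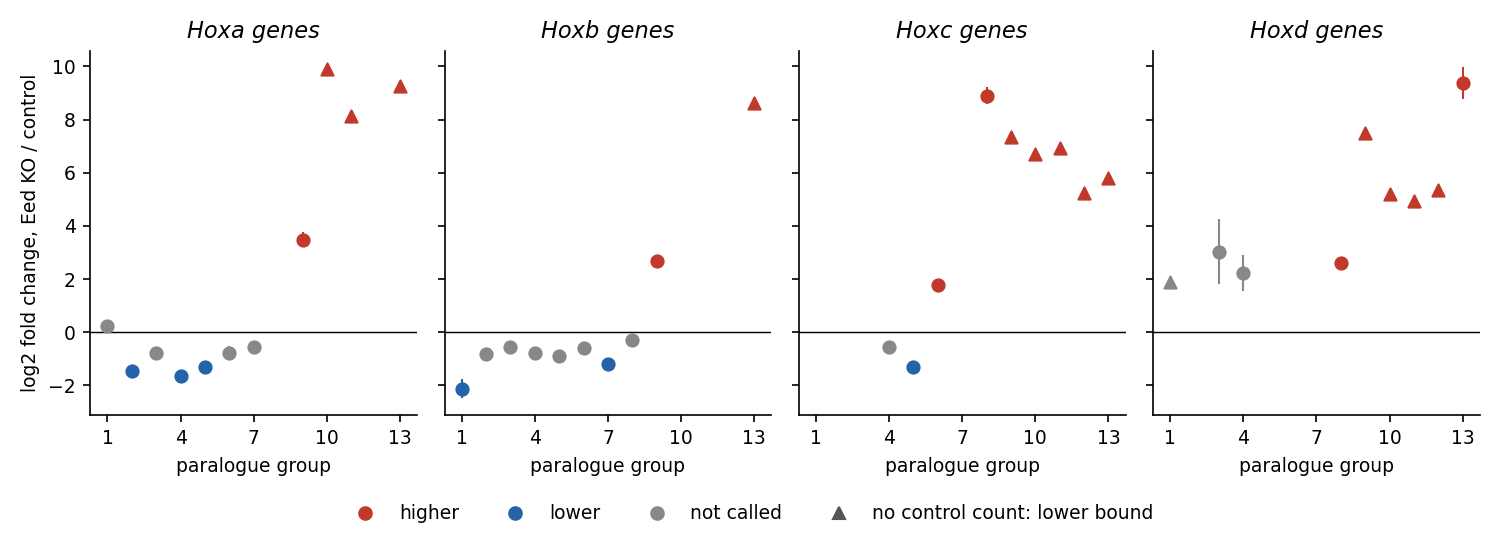
Log2 fold change (Eed KO over control) of the 39 tested Hox genes by paralogue group, 1 panel for each cluster; bars are the SE of the fit and triangles are lower bounds for genes without a control count. All 12 genes of groups 10 to 13 lie above 0 and are called higher, and the 6 genes called lower are in groups 1 to 7. Control levels in groups 10 to 13 (means of at most 0.040 CPM) left hardly any room for a decrease.

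Homeobox families outside the Hox clusters were raised across many lineages. Over all 13 homeobox lists, Hox included, 72 of 137 tested genes were higher and 6 lower, out of 180 genes listed. The families below are normally used in head, limb, neural or pharyngeal development.

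Among NK-like genes, 16 of 23 tested were higher and none was lower (10, 9, 12 and 8 higher without 1 library). Of the 36 NK-like genes listed, 13 had too few counts to be tested. The summed level of the list was not raised, at 710 and 588 CPM in the controls and 515 and 483 CPM in the Eed KO. Vax2, an eye gene, went from 0 and 0 CPM to 9.79 and 9.76 CPM, at least 240.3-fold higher. En1, an engrailed gene of the midbrain and limb, went from 0 and 0 CPM to 3.92 and 5.98 CPM, at least 121-fold higher. Nkx2-3, a gene of gut and spleen mesenchyme, was already present at 2.06 and 0.204 CPM and rose to 18.6 and 25.2 CPM (log2 fold change 4.32, SE 0.62, adjusted p = 0.00717). Its 2 control libraries differed widely, and its 2 Eed KO libraries were close to each other. The call of Nkx2-3 did not hold in all 4 fits with 1 library left out (highest adjusted p 0.0560). Nkx6-1, known from pancreas and nervous system, rose from 3.13 and 3.54 to 18.1 and 19.5 CPM.

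Paired-type genes were higher for 12 of 16 tested (10, 8, 11 and 9 without 1 library), and 11 others had too few counts to be tested. Prrx1, a limb and craniofacial mesenchyme gene, had the largest level among them, with 22.6 and 33.1 CPM in the controls and 191 and 181 CPM in the Eed KO (log2 fold change 2.74, SE 0.23, adjusted p = 0.000798). Shox2, a limb and heart gene, rose from 0.116 and 0.102 to 11.8 and 12.3 CPM (log2 fold change 6.75, SE 0.32, adjusted p = 0.000138). Alx1, a gene of the facial mesenchyme, had 0 and 0.0510 CPM in the controls and 4.85 and 5.40 CPM in the Eed KO. LIM homeobox genes were higher for 7 of 9 tested (2, 3, 5 and 3 without 1 library). Lhx6, a gene of forebrain interneurons and the jaw, rose from 0.290 and 0.331 to 10.1 and 12.2 CPM (log2 fold change 5.15, SE 0.34, adjusted p = 0.000347), and Lhx9 from 11.6 and 13.9 to 51.2 and 49.3 CPM (log2 fold change 1.98).

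A list of Eya, Dach and partner homeobox genes, which act together in muscle, kidney and sensory organs, had 6 of 11 tested genes higher (6, 5, 6 and 6 without 1 library). Eya4 rose from 9.50 and 6.24 to 35.4 and 37.2 CPM (log2 fold change 2.21, SE 0.24, adjusted p = 0.00221). Dlx and Msx genes were higher for 5 of 8 tested, but for 1, 1, 3 and 3 without 1 library. Dlx5 rose from 0 and 0.0765 to 1.07 and 1.07 CPM and was called in all of these fits, at a level near 1 CPM. Pou3f3, a brain and kidney gene, rose from 0.116 and 0.0255 to 12.9 and 17.2 CPM (log2 fold change 7.71, SE 0.46, adjusted p = 0.000224), and 5 of 14 POU and Cut genes were higher.

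Among factors without a homeobox of the families above, T-box genes were higher for 9 of 11 tested (6, 6, 8 and 7 without 1 library). Of the 17 T-box genes listed, 6 had too few counts to be tested. Tbx15, a limb and skin mesenchyme gene, rose from 0.0579 and 0.0765 to 11.8 and 13.46 CPM (log2 fold change 7.47, SE 0.53, adjusted p = 0.000452). Tbx5, which marks forelimb, heart and lung mesenchyme, rose from 0.174 and 0.127 to 8.63 and 11.5 CPM (log2 fold change 6.04, SE 0.44, adjusted p = 0.000851), and Tbx4, its hindlimb and lung counterpart, from 0.0869 and 0.229 to 2.95 and 4.25 CPM. Pax genes were higher for 5 of 6 tested (4, 4, 4 and 3 without 1 library). A further 3 Pax genes had too few counts to be tested. All 9 Pax genes summed to 0.493 and 0.459 CPM in the controls, so a decrease could hardly have been called. Pax6, an eye, brain and islet gene, went from 0 and 0.0255 CPM to 8.53 and 10.0 CPM, 683-fold higher (95% interval 122 to 27009), and Pax9, a pharyngeal and skeletal gene, from 0.116 and 0 to 4.16 and 4.66 CPM.

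Zic1, a neural tube and somite gene on chromosome 9, had the largest fitted change among named genes: 0 and 0 CPM in the controls and 38.2 and 45.6 CPM in the Eed KO, at least 1029-fold higher (adjusted p = 0.00102). Zic2 and Zic4 were also called, both from 0 control counts, with Eed KO levels of 1.42 and 2.47 CPM and 1.10 and 1.67 CPM. No Gli gene, the effectors of hedgehog signals, was called. The call of Zic4 did not hold in all 4 fits with 1 library left out (highest adjusted p 0.0644).

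GATA factors were higher for 4 of 5 tested (2, 2, 4 and 2 without 1 library). Gata4, a gene of the stomach, heart and endoderm, rose from 14.5 and 15.5 to 87.2 and 93.7 CPM (log2 fold change 2.59, SE 0.29, adjusted p = 0.00267). Gata6 rose from 36.8 and 32.4 to 90.4 and 111 CPM (log2 fold change 1.54, SE 0.24, adjusted p = 0.0107) and Gata2 from 1.22 and 1.53 to 8.74 and 13.3 CPM (log2 fold change 3.00, SE 0.30, adjusted p = 0.00175). Both Eed KO libraries lay above both controls for each of these genes. The calls of Gata6 and Gata5 did not hold in all 4 fits with 1 library left out (highest adjusted p among them 0.130).

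Sox and forkhead families were raised in part. Sox genes were higher for 6 of 17 tested (2, 2, 3 and 2 without 1 library), led in level by Sox2, an anterior foregut and neural gene, at 0.666 and 0.867 CPM against 9.28 and 12.5 CPM (log2 fold change 3.82, SE 0.34, adjusted p = 0.00102). Forkhead genes were higher for 7 of 30 (6, 6, 7 and 6 without 1 library). Foxd1, a kidney stroma gene, rose from 0.145 and 0.0765 to 11.7 and 18.0 CPM (log2 fold change 7.05, SE 0.46, adjusted p = 0.000337) and Foxc1, a mesoderm gene, from 1.16 and 1.33 to 16.04 and 16.6 CPM (log2 fold change 3.71, SE 0.30, adjusted p = 0.000787). Foxf1, the forkhead factor of gut mesenchyme, was instead at 378 and 379 CPM in the controls and 264 and 227 CPM in the Eed KO, under the fold threshold (log2 fold change -0.62, adjusted p = 0.0143). Ebf3, which acts in neurons and in muscle and fat precursors, rose from 5.82 and 4.21 to 110.1 and 133 CPM (log2 fold change 4.60, SE 0.25, adjusted p = 0.000138), and Ebf2, a factor of brown fat precursors, from 0.377 and 0.306 to 11.1 and 14.9 CPM. Tfap2b, a neural crest and kidney factor, went from 0 and 0 CPM to 3.78 and 5.89 CPM, at least 119-fold higher. Nuclear receptor genes were higher for 8 of 41 (3, 3, 6 and 4 without 1 library).

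**Figure D3:**
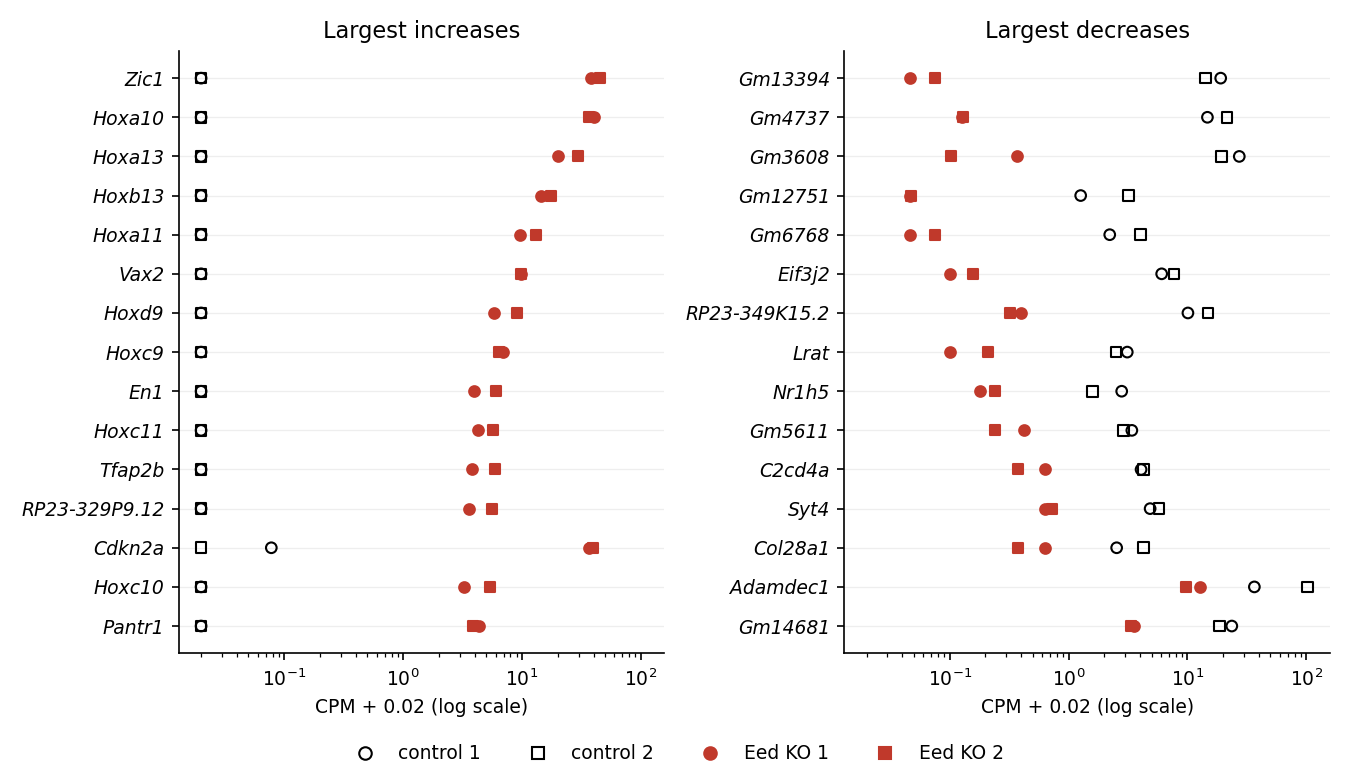
CPM in each of the 4 stomach libraries (with 0.02 added, log scale) for the 15 genes with the largest increases and the 15 with the largest decreases among calls whose genotypes do not overlap and whose mean over the 4 libraries reaches 1 CPM. Open symbols are control libraries and filled symbols Eed KO libraries; 14 of the 15 raised genes are at 0 CPM in both controls.

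Some genes that restrain the cell cycle were raised. Of 8 cyclin-dependent kinase inhibitor genes, 4 were higher and none lower (2, 3, 4 and 2 without 1 library). Cdkn2a (chr4:89274471-89294653), which encodes p16INK4a and p19ARF, had 2 and 0 counts in the controls and 1357 and 1456 in the Eed KO, or 0.0579 and 0 CPM against 36.4 and 39.9 CPM. It was 1406-fold higher (95% interval 389 to 11617), with an adjusted p of 0.000138. Counts per gene do not separate the transcripts of p16INK4a and p19ARF, and the promoter printed above is that of the outermost gene start. Cdkn2b, the neighbour of Cdkn2a encoding p15INK4b, rose from 0.0290 and 0.204 to 3.11 and 4.28 CPM (log2 fold change 4.89, SE 0.69, adjusted p = 0.00648). Cdkn2c rose from 9.74 and 14.2 to 41.1 and 51.8 CPM and Cdkn1a, encoding p21, from 3.01 and 3.98 to 9.76 and 12.6 CPM. Cdkn1c, the inhibitor with the highest level, was at 1656 and 1656 CPM in the controls and 1593 and 1643 CPM in the Eed KO and was not called. The calls of Cdkn2c and Cdkn1a did not hold in all 4 fits with 1 library left out (highest adjusted p among them 0.131).

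Targets of p53 were higher for 7 of 17 tested (5, 6, 7 and 5 without 1 library). Eda2r, a death-domain receptor of the TNF receptor family, rose from 2.14 and 2.88 to 29.3 and 26.4 CPM (log2 fold change 3.46, SE 0.21, adjusted p = 0.000224) and Pmaip1, encoding the pro-apoptotic protein NOXA, from 0.551 and 0.535 to 10.4 and 10.3 CPM (log2 fold change 4.24, SE 0.20, adjusted p = 0.000138). Ccng1 rose from 76.2 and 74.8 to 159.9 and 167 CPM (log2 fold change 1.12, SE 0.09, adjusted p = 0.000798), with libraries of each genotype within a few percent of each other. None of 30 proliferation genes was called (median log2 fold change -0.41), and 3 were lower with the spike-in factor (median -0.61). The 30 genes summed to 4013 and 4455 CPM in the controls and 3174 and 3412 CPM in the Eed KO. The highest log2 fold change of the list, 1.29, was that of Mki67. Mki67, a marker of dividing cells, had 18.1 and 28.2 CPM in the controls and 28.1 and 85.4 CPM in the Eed KO (adjusted p = 0.432), and Pcna, the replication clamp, had 236 and 251.4 CPM against 190.0 and 159 CPM (log2 fold change -0.48).

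**Figure D4:**
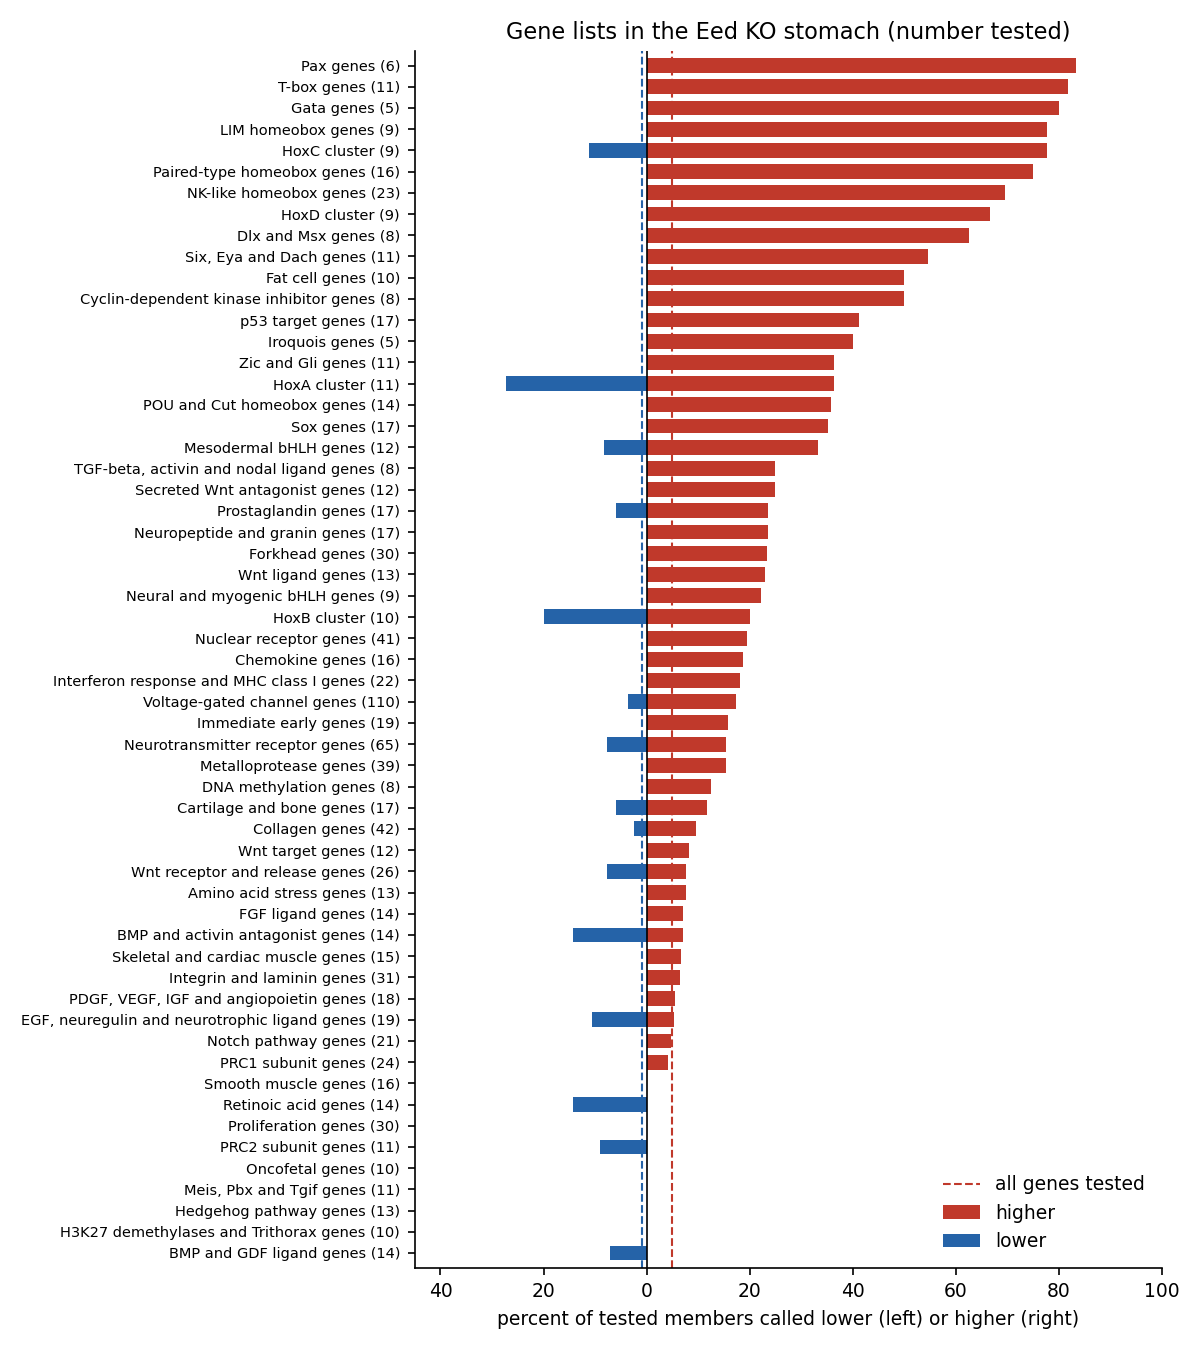
Percent of the tested members of each gene list called higher (right) or lower (left) in the Eed KO stomach, with the number tested in brackets; dashed lines are the same percentages over all genes tested (4.86% higher, 0.82% lower). Pax, T-box, GATA, LIM, HoxC and paired-type genes stand at the top. Members with too few counts to be tested are left out, so lists with low control levels lean towards increases.

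Signalling genes were called in both directions. Over all 15 signalling lists, 22 of 226 tested genes were higher (9.73%) and 10 lower (4.42%), with a median log2 fold change of 0.19. The shares over all genes tested were 4.86% higher and 0.82% lower. Without 1 library the counts were 9, 5, 17 and 7 higher and 6, 4, 4 and 3 lower.

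Among Wnt ligand genes, 3 of 13 tested were higher. Wnt11, a ligand of morphogenetic movements, rose from 14.2 and 11.5 to 35.8 and 32.7 CPM (log2 fold change 1.41, SE 0.21, adjusted p = 0.00791), Wnt6 from 1.45 and 1.249 to 3.59 and 3.56 CPM and Wnt10b from 0 and 0 to 0.402 and 0.302 CPM. Wnt2, a mesenchymal ligand, had 1.246 and 3.03 CPM in the controls and 6.49 and 7.79 CPM in the Eed KO, but did not pass (adjusted p = 0.0620). Wnt5a, the ligand with the highest level, had 276 and 366 CPM against 267 and 233 CPM (adjusted p = 0.235). The calls of Wnt11, Wnt6 and Wnt10b did not hold in all 4 fits with 1 library left out (highest adjusted p among them 0.229).

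Secreted Wnt antagonists were higher for 3 of 12 tested. Sfrp2 rose from 127 and 151 to 337 and 393 CPM (log2 fold change 1.39, SE 0.23, adjusted p = 0.0131), and Frzb from 5.97 and 5.30 to 17.0 and 18.0 CPM (log2 fold change 1.64, SE 0.18, adjusted p = 0.00257). Rspo1 and Rspo2, R-spondins that amplify Wnt signals at the receptor, fell relative to the library total. Rspo1 had 50.7 and 65.9 CPM in the controls and 29.6 and 26.1 CPM in the Eed KO (log2 fold change -1.07, SE 0.19, adjusted p = 0.0165), and Rspo2 had 26.3 and 46.5 CPM against 11.5 and 19.2 CPM (log2 fold change -1.25, SE 0.30, adjusted p = 0.0487). Rspo4 rose from 0.0579 and 0.127 to 1.37 and 1.62 CPM (log2 fold change 3.93). Axin2, a common readout of Wnt activity, had 16.9 and 17.7 CPM against 15.6 and 20.4 CPM (adjusted p = 0.900), and 1 of 12 Wnt target genes, Ccnd1, was called higher. Axin2 had the lowest log2 fold change of these 12 genes (0.057), and their median was 0.79. Their summed level was 208 and 240 CPM in the controls and 333 and 372 CPM in the Eed KO. With the spike-in factor the median turned to -0.15. The calls of Sfrp2, Rspo1, Rspo2 and Ccnd1 did not hold in all 4 fits with 1 library left out (highest adjusted p among them 0.257).

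Genes called lower in the BMP and activin lists were 1 of 14 ligand genes and 2 of 14 antagonist genes. Bmp6 had 17.7 and 16.2 CPM in the controls and 7.43 and 8.09 CPM in the Eed KO (log2 fold change -1.13, SE 0.18, adjusted p = 0.0121). Fst, encoding the activin antagonist follistatin, had 259 and 294 CPM against 94.0 and 70.5 CPM (log2 fold change -1.75, SE 0.31, adjusted p = 0.0156), and Chrdl1, a BMP antagonist, 93.2 and 71.5 CPM against 33.7 and 35.0 CPM (log2 fold change -1.26, SE 0.16, adjusted p = 0.00398). Bmp4, a main mesenchymal ligand, had 47.2 and 81.7 CPM against 82.8 and 73.2 CPM and was not called. Inhba, encoding the activin A subunit, rose from 1.56 and 1.61 to 6.57 and 6.63 CPM (log2 fold change 2.06, SE 0.25, adjusted p = 0.00387). The calls of Bmp6 and Fst did not hold in all 4 fits with 1 library left out (highest adjusted p among them 0.152).

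Genes of retinoic acid handling were lower for 2 of 14 tested. Cyp26a1, which degrades retinoic acid, had 15.8 and 16.9 CPM in the controls and 5.34 and 3.65 CPM in the Eed KO (log2 fold change -1.87, SE 0.22, adjusted p = 0.00334), and Aldh1a1, which makes it, 11.8 and 14.6 CPM against 5.66 and 3.62 CPM (log2 fold change -1.50, SE 0.31, adjusted p = 0.0272). Aldh1a2, the main synthesis enzyme here by level, had 349 and 354 CPM against 259 and 237 CPM (log2 fold change -0.50), under the fold threshold. Lrat, which stores retinol as an ester, fell from 3.10 and 2.498 to 0.0804 and 0.192 CPM (log2 fold change -4.33, SE 0.54, adjusted p = 0.00387). Gdnf, the growth factor that guides enteric neural crest cells, had 76.5 and 66.5 CPM against 28.5 and 27.1 CPM (log2 fold change -1.36, SE 0.10, adjusted p = 0.000558). Cxcl12, a chemokine for migrating cells, went the other way, from 272 and 205 to 573 and 525 CPM (log2 fold change 1.203, SE 0.14, adjusted p = 0.00324). Under absolute spike-in scaling, all 10 signalling genes called lower turned positive, whereas Lrat, which is in no signalling list, stayed negative (-1.91, adjusted p = 0.0504). The call of Aldh1a1 did not hold in all 4 fits with 1 library left out (highest adjusted p 0.197).

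Hedgehog pathway genes (0 of 13 tested) and glycolysis, cholesterol synthesis and ribosomal protein genes (0 of 18, 0 of 20 and 0 of 82) had no call in either direction. Fgf10, a mesenchymal growth factor, had 139 and 88.8 CPM in the controls and 63.7 and 62.2 CPM in the Eed KO (log2 fold change -0.86, adjusted p = 0.0705).

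Of 16 tested genes in a list of stomach mesenchyme factors, 3 were higher (Nkx6-1, Lhx9 and Tbx3) and 1 was lower (Hoxa5). Barx1, the stomach mesenchyme factor, had 626 and 557 CPM in the controls and 379 and 310.2 CPM in the Eed KO (log2 fold change -0.78, SE 0.27, adjusted p = 0.136). The 2 groups did not overlap for Barx1, but the change missed both thresholds. Tcf21, a factor of visceral mesenchyme, had 333 and 369 CPM against 236 and 205 CPM (log2 fold change -0.67, adjusted p = 0.0193). Nkx3-2, the gene also called Bapx1 whose promoter drives the Cre, had 28.0 and 13.46 CPM against 18.7 and 21.1 CPM. Of 15 tested genes in a list of intestinal mesenchyme factors 11 were higher, and 8 of these were Hox genes already given above; the others were Nkx2-3, Hand1 and Tbx2. Hand1, a gene of gut mesenchyme, rose from 1.94 and 0.280 to 5.44 and 10.6 CPM (log2 fold change 2.89, SE 0.62, adjusted p = 0.0296) and Tbx2 from 12.3 and 15.5 to 33.5 and 49.7 CPM (log2 fold change 1.58, SE 0.24, adjusted p = 0.00964). The calls of Lhx9, Tbx3, Hand1, Tbx2 and Nkx2-3 did not hold in all 4 fits with 1 library left out (highest adjusted p among them 0.192). Cdx2, the intestinal epithelial factor, had 0 and 0 CPM in the controls and 0.107 and 0.110 CPM in the Eed KO, too few counts to be tested.

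Differentiation genes of mesenchyme held few calls outside the fat cell list. None of 16 smooth muscle genes was called (median log2 fold change -0.14), but 7 of them were lower with the spike-in factor (median -1.03). Acta2, smooth muscle actin, had 1889 and 1876 CPM in the controls and 1100.4 and 1180.5 CPM in the Eed KO (log2 fold change -0.72, adjusted p = 0.104), and Myh11, the smooth muscle myosin, 129.7 and 201 CPM against 121 and 268 CPM. Both Eed KO libraries were below both controls for Acta2, while Myh11 overlapped; with the spike-in factor Myh11 was called lower (-2.62, adjusted p = 0.0320). Fat cell genes were higher for 5 of 10 tested, led by the Ebf genes. Cd36, a fatty acid carrier, rose from 0.435 and 0.459 to 2.04 and 2.52 CPM (log2 fold change 2.34, SE 0.26, adjusted p = 0.00232) and Cebpa, a fat and liver cell factor, from 2.17 and 2.65 to 7.54 and 7.84 CPM (log2 fold change 1.67, SE 0.19, adjusted p = 0.00268). Runx3, a cartilage, neuron and blood cell factor, went from 0 and 0 CPM to 2.04 and 4.06 CPM, at least 74.6-fold higher.

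Collagen genes were higher for 4 of 42 tested and lower for 1, and metalloprotease genes higher for 6 of 39. With the spike-in factor the collagen genes stood at 3 higher and 6 lower, and their median turned from 0.44 to -0.78; the metalloprotease median turned from 0.46 to -0.27. Col15a1, a basement membrane collagen, rose from 2.00 and 2.83 to 11.1 and 20.5 CPM (log2 fold change 2.70, SE 0.35, adjusted p = 0.00487), and Adamts1, a protease of the extracellular matrix, from 70.0 and 77.8 to 176 and 208 CPM (log2 fold change 1.38, SE 0.15, adjusted p = 0.00209). Igfbp5, an insulin-like growth factor binding protein, added the most CPM of any raised gene, from 1375 and 1544 to 2479.9 and 3736 CPM (log2 fold change 1.09, SE 0.21, adjusted p = 0.0195). Its call did not hold without either control or Eed KO replicate 2. Npr3, the clearance receptor for natriuretic peptides, rose from 36.6 and 38.4 to 147 and 179 CPM (log2 fold change 2.12, SE 0.11, adjusted p = 0.000138), and Cldn11, a tight junction protein, from 4.81 and 4.77 to 42.4 and 48.3 CPM (log2 fold change 3.24, SE 0.23, adjusted p = 0.000415).

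Genes of excitable cells were called in both directions. Voltage-gated channel genes were higher for 19 of 110 tested and lower for 4, but without 1 library the raised count was 3, 3, 12 and 2. Neurotransmitter receptor genes were higher for 10 of 65 and lower for 5. Chrna4, a nicotinic receptor subunit, rose from 3.22 and 2.40 to 11.3 and 14.7 CPM (log2 fold change 2.21, SE 0.27, adjusted p = 0.00363), while Chrm3, a muscarinic receptor, fell from 32.7 and 30.3 to 11.5 and 13.52 CPM (log2 fold change -1.33, SE 0.12, adjusted p = 0.00102) and Adra2a, an adrenergic receptor, from 42.9 and 27.8 to 11.9 and 11.1 CPM (log2 fold change -1.62, SE 0.21, adjusted p = 0.0050). Stmn2, a neuronal microtubule protein, rose from 5.27 and 4.05 to 38.5 and 44.2 CPM (log2 fold change 3.15, SE 0.32, adjusted p = 0.0019). Gap43, a growth cone protein, fell from 13.3 and 13.66 to 4.80 and 4.39 CPM (log2 fold change -1.55, SE 0.15, adjusted p = 0.00142). Chrm3, Adra2a and Gap43 turned positive under absolute spike-in scaling.

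Antigen processing genes rose together at low levels. In the interferon and MHC class I list, 4 of 22 tested were higher, all of them neighbours on chromosome 17. Tap1, a peptide transporter, rose from 6.58 and 6.42 to 18.2 and 21.1 CPM (log2 fold change 1.60, SE 0.17, adjusted p = 0.00218) and Tap2 from 0.753 and 1.10 to 5.202 and 6.11 CPM (log2 fold change 2.60, SE 0.28, adjusted p = 0.00216). Psmb8 and Psmb9, immunoproteasome subunits, reached 0.509 and 0.576 and 1.153 and 0.987 CPM. B2m, the light chain of MHC class I, had 43.4 and 49.7 CPM in the controls and 60.5 and 60.3 CPM in the Eed KO and was not called (adjusted p = 0.0741). The calls of Psmb8 and Psmb9 did not hold in all 4 fits with 1 library left out (highest adjusted p among them 0.141).

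Further genes called lower are given singly. Efnb2, the ephrin-B2 ligand of Eph receptors, had 313 and 305 CPM in the controls and 146 and 136 CPM in the Eed KO (log2 fold change -1.13, SE 0.10, adjusted p = 0.00105). Lrig1, a negative regulator of growth factor receptors, had 178 and 179 CPM against 87.9 and 88.0 CPM (log2 fold change -1.02, SE 0.11, adjusted p = 0.00225), and Rgmb, a BMP co-receptor, 143 and 128 CPM against 62.5 and 62.8 CPM (log2 fold change -1.11, SE 0.09, adjusted p = 0.000798). Replicates of each genotype lay close together for Efnb2 and Lrig1. Tubb2a, a tubulin, had 119 and 142 CPM against 58.8 and 61.6 CPM, and Crmp1, a protein of growing axons, 144 and 97.7 CPM against 49.5 and 43.5 CPM (log2 fold changes -1.11 and -1.38). Cldn15, a claudin that forms sodium pores in the intestinal epithelium, fell from 27.6 and 31.0 to 4.93 and 5.26 CPM (log2 fold change -2.52, SE 0.19, adjusted p = 0.000558), and Syt4, a synaptotagmin, from 4.84 and 5.76 to 0.617 and 0.713 CPM (log2 fold change -2.99, SE 0.26, adjusted p = 0.0008). Adamdec1, a disintegrin-like protease of gut mesenchyme, fell from 36.6 and 103 to 12.8 and 9.70 CPM (log2 fold change -2.63, SE 0.53, adjusted p = 0.0253), with control libraries far apart. Under absolute spike-in scaling Cldn15 (-0.12), Syt4 (-0.60) and Adamdec1 (-0.38) stayed negative, and the other 5 genes of this paragraph turned positive. The calls of Tubb2a, Crmp1 and Adamdec1 did not hold in all 4 fits with 1 library left out (highest adjusted p among them 0.230).

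Some of the largest decreases were in gene models named by number. Gm13394 had 19.04 and 14.2 CPM in the controls and 0.0268 and 0.0548 CPM in the Eed KO, Gm4737 14.7 and 21.5 CPM against 0.107 and 0.110 CPM, and Gm3608 27.3 and 19.3 CPM against 0.349 and 0.0822 CPM. Pseudogenes by symbol in GENCODE vM21 made up 9.77% of lowered genes and 26.2% of the 42 lowered more than 4 times, against 3.96% of genes not called and 1.65% of raised genes. In the intestinal libraries of the same genotypes, the log2 fold changes of Gm13394, Gm4737 and Gm3608 were -9.21, -6.96 and -6.42, next to -8.55, -7.34 and -6.73 in the stomach. Gm8730 moved the opposite way, from 9.45 and 6.88 to 117 and 176 CPM. Gm13394, Gm3608 and Gm8730 are annotated as pseudogenes and Gm4737 as protein coding. Near-identical copies can share reads, and strain background cannot be told apart from genotype for them, so these values are uncertain.

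Cells of the sorted population were checked against markers. The 12 mesenchyme markers summed to 17238 and 21057 CPM in the controls and 17633 and 25168 CPM in the Eed KO, and Pdgfra, a defining receptor of these cells, had 1199 and 1199 CPM against 851 and 855 CPM. The 20 epithelial markers summed to 218 and 224 CPM in the controls and 194 and 246 CPM in the Eed KO. Epcam, the defining epithelial adhesion molecule, had 15.1 and 13.53 CPM in the controls and 13.9 and 12.6 CPM in the Eed KO. However, 5 of 18 tested epithelial markers (27.8%) were higher, against 4.86% of all genes tested. Among them were Sox2 and the factor Foxa1 (0.145 and 0.510 against 5.93 and 7.48 CPM). The median log2 fold change of the 18 markers was 1.75, and 0.90 with the spike-in factor. Ptprc, which marks all leukocytes, was at 0 in all 4 libraries, and the 15 leukocyte markers summed to 6.73 to 11.1 CPM.

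Endothelial markers differed between the groups. Of 15 tested, 10 were higher and none lower (2 to 9 without 1 library, lowest without control replicate 2), and their sum was 28.5 and 27.4 CPM in the controls and 48.5 and 74.9 CPM in the Eed KO. Cdh5, the adhesion molecule of endothelial junctions, rose from 0.493 and 0.433 to 3.92 and 8.17 CPM (log2 fold change 3.70, SE 0.40, adjusted p = 0.00226) and Pecam1 from 0.406 and 0.637 to 2.36 and 4.88 CPM (log2 fold change 2.77, SE 0.42, adjusted p = 0.00875). Kdr, a receptor for VEGF with a higher level, had 11.8 and 9.76 CPM against 13.1 and 22.9 CPM (adjusted p = 0.134), Tek 2.35 and 3.49 against 3.51 and 6.72 CPM and Esam 4.11 and 3.75 against 4.08 and 5.65 CPM, and none of the 3 was called. The lists of GATA, Sox and claudin genes include Gata2, Sox17, Sox18 and Cldn5, which endothelial cells express. The calls of Pecam1, Sox17 and Cldn5 did not hold in all 4 fits with 1 library left out (highest adjusted p among them 0.199). The part of other cell types in these calls was not tested. In bulk RNA more cells of a type and more RNA per cell cannot be told apart.

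**Figure D5:**
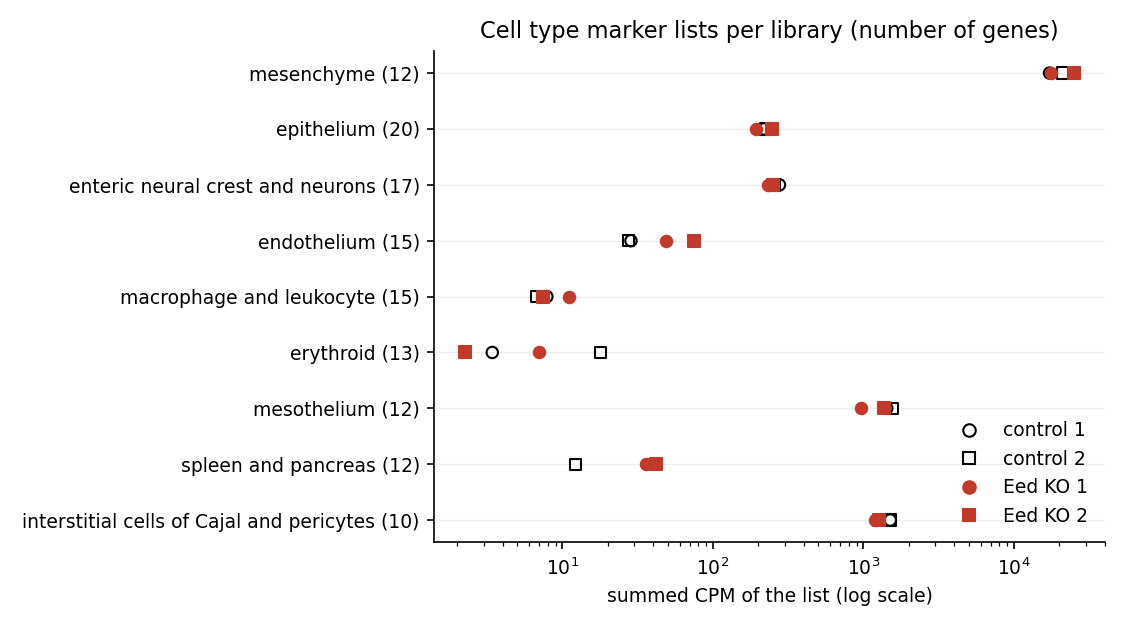
Summed CPM of each cell type marker list in the 4 stomach libraries (log scale); open symbols are controls, filled symbols Eed KO, and brackets give the genes in each list. Endothelial sums are 28.5 and 27.4 CPM in the controls and 48.5 and 74.9 CPM in the Eed KO, while epithelial sums overlap.

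Raised genes lay next to each other in places. Runs of 3 or more neighbouring tested genes that were all higher numbered 21 and held 77 of the 789 raised genes. The longest, chr6:52223100-52318378, held 9 genes from Hoxa9 to Evx1, with the noncoding genes Hoxa11os and Hottip among them. The genes of these runs that are in no list, and Hoxb8, Kdr, Tek and Esam above, were named after their values were seen. Evx1, a posterior homeobox gene, went from 0 and 0.0255 to 5.36 and 7.70 CPM, 481-fold higher (95% interval 85.9 to 19032). A run of 6 genes on chr17:34153072-34269418 held Psmb9, Tap1, Psmb8 and Tap2 between the MHC class II genes H2-DMb1 and H2-Ab1. The posterior ends of HoxC and HoxD gave runs of 5 genes each, with the noncoding Hotair inside the first at 0.509 and 0.850 CPM in the Eed KO and 0 in the controls. Cdkn2a, Cdkn2b and Dmrta1 formed a run of 3 on chromosome 4. The calls of Dmrta1, H2-DMb1, H2-Ab1, Psmb9, Psmb8, Hotair and Hottip did not hold in all 4 fits with 1 library left out (highest adjusted p among them 0.225). Genes at a shared locus are not independent of each other.

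Open chromatin at raised genes was mostly present in the controls already. ATAC-seq, which cuts accessible DNA, gave 1 pooled peak list for each genotype, so these shares have no test. A control peak lay within 1000 bp of the gene start for 698 of the 789 raised genes (88.5%), against 88.3% of genes not called and 78.2% of lowered genes. Of the 424 raised genes under 1 CPM in the controls 365 (86.1%) had a control peak, against 64.3% of the 2622 genes under 1 CPM that were not called. A peak in the Eed KO list alone was found for 20 raised genes (2.53%) and in the control list alone for 3 (0.38%). Among genes not called these shares were 1.17% and 0.55%. Under 1 CPM in the controls, a peak in the Eed KO list alone was found for 3.30% of raised genes and 4.16% of genes not called.

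The genes with printed promoters had a peak in both lists. The fold enrichment over background at Zic1 was 3.81 in the control list and 3.21 in the Eed KO list, at Hoxa13 2.61 and 2.76, and at Cdkn2a 4.93 and 5.77. In the same order, the −log10 q was 7.73 and 13.2 at Zic1, 2.77 and 7.63 at Hoxa13 and 17.5 and 48.7 at Cdkn2a. At Fabp7 it was 6.65 and 4.68. The control peak of Hoxa13 and the Eed KO peak of Fabp7 thus miss a cut-off of 5. With peaks of at least 5 in −log10 q, the raised genes with a control peak fell to 74.9% and those with a peak in the Eed KO list alone rose to 10.9%, against 85.0% and 1.86% of genes not called. Under 1 CPM in the controls, the share with such a peak in the Eed KO list alone was 15.3% of raised genes and 5.91% of genes not called. Peaks were called on pooled samples and the depth behind them is unknown, so peaks in 1 list alone may lie near the calling threshold in the other.

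Promoters of raised genes were intermediate in CpG content. Over 250 bases before to 50 after the gene start, the median ratio of observed to expected CpG was 0.602 for raised genes, 0.442 for lowered genes and 0.716 for genes not called. Among genes under 1 CPM in the controls, it was 0.575 for the 424 raised genes and 0.441 for genes not called, with a ratio of at least 0.6 in 46.7% and 34.2%. The letters TATAAA, searched on the gene's strand between 50 and 6 bases before the start, were found in 2.53% of raised, 2.26% of lowered and 1.35% of all tested promoters. Among genes under 1 CPM in the controls, the shares were close, at 2.59% of raised genes and 2.33% of genes not called.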

How the data were processed

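Gene counts of polyadenylated RNA were deposited for 4 embryonic stomach and 4 intestinal libraries. According to the labels and methods, the authors used NEBNext Ultra II Directional libraries with spike-in RNA, Trimmomatic 0.32, STAR 2.5.1b and featureCounts (2.5.0 in the processing notes) on mm10 with GENCODE vM4; the strand setting of the counting is not given in the sources used here. The deposited values are raw counts. The gene totals of 34115855 to 39606157 set the counting precision, and intervals and floors cover counting error only. The 99 spike-in rows were kept out of library sizes and tests. ATAC-seq peak lists were deposited for pooled replicates, made by the authors with BWA 0.7.8 and MACS2 2.1.2, with a deposited fold enrichment ratio and −log10 q for each peak.

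Counts were tested by quasi-likelihood in edgeR 4.0.16 (R 4.3.3, TMM, filterByExpr, 4 group means over 8 embryonic libraries) and adjusted by Benjamini-Hochberg over 16218 genes; calls had to pass 0.05 in adjusted p and exceed 1 in absolute log2 fold change. CPM uses TMM-scaled library sizes. Floors are 3 counts over the group; ratios to 1 to 3 control counts have exact 95% intervals. On simulated counts of 15788 genes for the stomach comparison, all 100 genes changed 3-fold and all 100 changed 6-fold were recovered, with 2 false calls. The changed genes lay above 1 CPM in the controls and every gene had the same spread. The simulation therefore does not cover raised genes at lower levels or genes with a wider spread. Stomach replicates differed by more than sampling noise (chi-square over degrees of freedom 19.9 and 47.0). Gene lists and members were chosen with earlier results of these data known. Named genes are Eed and PRC2 genes, the 15 calls per direction with the largest fold change at a mean of at least 1 CPM without overlap, the 10 per direction with the largest CPM difference, and called or key members of 81 lists. Alternatives were DESeq2 1.42.0, RLE factors, spike-in scaling, a spike-in RUVg factor, no filter, stomach libraries alone, a replicate block and leaving out each library. Spike-in scaling relative to its median shift and, for the difference between organs, a block for the embryo were added after seeing the data. The study's methods name DESeq2 after spike-in RUV without the number of factors. Some called genes are not reported here.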

Additional observations from a re-analysis of the deposited data

Results flagged for a closer look

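The effect of Eed loss was compared between stomach and intestine for the named genes by the interaction contrast of the same edgeR fit, adjusted over all genes tested. Values are the stomach log2 fold change minus that of the intestine, and where controls held no count they depend on the prior count of the fit. Of the raised Hox genes and their antisense neighbour, 10 named here differed, with larger values in the stomach: the difference was 12.66 for Hoxa10, 11.38 for Hoxa11, 9.04 for Hoxa11os, 11.57 for Hoxa13, 2.14 for Hoxc6, 8.62 for Hoxc8, 8.19 for Hoxd11, 8.22 for Hoxd13, 1.65 for Hoxd8 and 10.01 for Hoxd9. For Hoxa10 the intestinal log2 fold change was 0.78, and for Hoxc8 it was 0.28. Other posterior genes did not pass: Hoxb9 had 4.70 in the intestine against 2.68 in the stomach (adjusted p of the difference 0.0691), Hoxb13 11.10 against 12.17 and Hoxc12 6.09 against 8.78 (both 1.00). Npr3 also rose more in the stomach, by a difference of 1.87. Barx1 differed by -4.31, with an intestinal log2 fold change of 3.53 against -0.78 in the stomach. Cldn15 and Gap43 differed by -1.99 and -1.85, and in the intestine their log2 fold changes were -0.53 and 0.29. Both organs were taken from the same animals, but the labels do not say that a number marks 1 embryo; deviations of same-numbered stomach and intestine libraries correlated at 0.628 in the Eed KO and 0.265 in the controls. With the embryo as a block, a fit chosen after seeing the data, 12 of these 14 genes still passed; Barx1 (adjusted p = 0.124) and Hoxd9 (adjusted p = 0.256) did not. Over all genes tested, 24 passed without this block and 170 with it, 22 of them in both.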

How the results depend on the processing

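The numbers of genes called higher and lower were 868 and 161 with DESeq2 and 1030 and 185 with a replicate block, against 789 and 133. The replicate numbers do not pair the stomach samples, since control and Eed KO embryos differ and their deviations correlated at 0.047. The stomach libraries alone gave 791 and 137. Absolute spike-in scaling gave 15369 higher and 17 lower, spike-in scaling relative to its median shift (chosen after seeing the data) 222 and 28, and DESeq2 with 1 spike-in factor 360 and 313, of which 267 and 47 were among the calls above; the factor itself moved with genotype. Leaving out 1 library gave 280 to 587 higher and 52 to 76 lower, with fewer libraries in the fit. The Eed value was 0.14 under absolute spike-in scaling and -2.24 relative to the shift, the latter with an adjusted p of 0.169. Raised genes with a control promoter peak were 74.9% with the stricter peaks and 96.1% in the 5000 bp window. Some named genes without a call changed sign. With the spike-in factor, Axin2 was -0.55, Epcam 0.37, Mki67 -1.73, Myh11 -2.62 (called lower there), Nkx3-2 0.22 and Tek -0.46, and relative to the spike-in shift Nkx3-2 was 0.024. Without 1 library, the values of those that changed sign ranged from -0.16 to 0.24 for Axin2, -0.070 to 0.72 for Bmp4, -0.46 to 0.69 for Myh11 and -0.49 to 0.56 for Nkx3-2. The cause was not tested. No called gene named here changed sign where an alternative gave a value (116 of 122 such genes with the spike-in factor, 121 with the stomach libraries alone), absolute spike-in scaling apart. With the block every named call held and Wnt2 was called as well (1.83, adjusted p = 0.00503).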
